A study of Mus musculus with 6 samples.

Results

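Homer, Shank, SAPAP and PSD-95 proteins form the scaffold beneath the excitatory synapse, and the 8 genes described here encode the core of it: Homer1, Homer2 and Homer3, Shank1, Shank2 and Shank3, Dlgap1 and Dlg4. They were taken by symbol from a table of 23284 genes, all 8 were found, and all 8 passed the filter on low counts that kept 15258 genes. The table holds RNA-seq read counts from prefrontal cortex tissue, taken from mice of the inbred strain C57BL/6 (C57BL/6J in the growth protocol) of wild type genotype and 8 to 10 weeks of age. There were 3 libraries from mice housed singly for 6 days and 3 from mice housed in a group for the same time, and nothing else differed between the groups according to the labels. Whether a library stands for 1 animal is not stated, so a p-value weighs only the spread among these libraries, some of which may be technical.

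In the postsynaptic density, PSD-95, the product of Dlg4, holds glutamate receptors at the membrane. SAPAP1, the product of Dlgap1, links PSD-95 to the Shank proteins, and Shank proteins bind Homer through a proline-rich motif. Long Homer forms pair with each other through a coiled coil and tie Shank to metabotropic glutamate receptors and to calcium channels of internal stores. Homer1 also yields a short form, Homer1a, which neurons make after strong activity. Homer1a binds the same partners but lacks the coiled coil and so uncouples them. The design therefore allows activity-regulated Homer1 to be set beside scaffolds that are made constitutively, in mice with and without company.

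The deposited counts cannot separate the short Homer1 form from the long ones, because each gene has 1 row. The sequences around the point where the forms part are shown to make that limit visible. In the GENCODE M21 annotation (GRCm38, chromosome 13) the fifth exon of Homer1 starts at 93355940, and its shared part ends at 93356079. In the short form (Homer1-204) the exon runs on to 93360462, whereas the long forms splice to a later exon. All bases shown are coding, the shared exon is in lower case, and the capitals mark the form-specific continuation.
Homer1-204 (short form, 186 residues): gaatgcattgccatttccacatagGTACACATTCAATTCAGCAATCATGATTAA
Homer1-202 (long form, 370 residues): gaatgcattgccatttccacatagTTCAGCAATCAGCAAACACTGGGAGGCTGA
Homer1-203 (long form with an added exon, 366 residues): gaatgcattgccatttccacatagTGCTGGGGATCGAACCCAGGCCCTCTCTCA
The Homer1 row of the table (chromosome 13, 94074450 to 94174917, plus strand, mm9) covers 11 exon blocks and 5715 bases. Block 6, of 891 bases, is the block that holds the short form's end: 751 of its bases, 13.1% of the row, lie beyond the 140 shared ones. In GENCODE M21 the same terminal exon is 4523 bases long, so most of the short form's last exon lies outside the counted block. Blocks 7 to 11, which belong to forms that splice past the short form's end, make up 3307 bases or 57.9% of the row. By exon bases the row is therefore weighted towards forms other than Homer1a, but how much of each form was present was not measured. The annotation also lists other coding forms, of 180 to 233 residues, that are not shown.

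The Homer1 promoter is shown because cyclic AMP response elements (CREs), the sites bound by the activity-regulated factor CREB, are a textbook feature of activity-induced genes. RefSeq promoters (build GRCm38.p6, 250 bases before to 50 after a start) were matched for 6 of the 8 genes, with 11 entries in all. 5 motifs were searched on both strands: the whole CRE (TGACGTCA), its half-site (TGACG), an AP-1 site (TGANTCA), an EGR site (GCGNGGGCG) and the CArG box. The half-site is contained in the whole CRE. The upstream Homer1 entry, chr13:93303507-93303806, plus strand, held 3 half-sites, in capitals, and the third Dlg4 entry, chr11:70023732-70024031, plus strand, held 1.
Homer1 promoter: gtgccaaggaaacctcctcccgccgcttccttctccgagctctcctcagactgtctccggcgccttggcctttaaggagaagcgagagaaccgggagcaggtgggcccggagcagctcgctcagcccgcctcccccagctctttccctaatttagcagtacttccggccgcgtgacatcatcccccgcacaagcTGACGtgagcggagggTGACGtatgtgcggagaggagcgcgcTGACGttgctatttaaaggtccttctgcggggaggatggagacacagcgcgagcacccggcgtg
Dlg4 promoter: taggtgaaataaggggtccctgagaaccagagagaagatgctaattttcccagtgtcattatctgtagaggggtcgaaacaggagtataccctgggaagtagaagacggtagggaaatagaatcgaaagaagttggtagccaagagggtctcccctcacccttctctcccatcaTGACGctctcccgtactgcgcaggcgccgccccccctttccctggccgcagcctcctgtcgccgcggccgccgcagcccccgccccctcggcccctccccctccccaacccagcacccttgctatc
The Homer1 half-sites lay at −56 to −52, −40 to −36 and −14 to −10 from the start, all on the plus strand. A half-site was present in 20.8% of 32851 promoter entries, and 3 or more in 1.03%. The second Homer1 entry and the other entries of these genes held none. The EGR site, present in 5.55% of all entries, occurred once each in an entry of Homer2 and in that of Homer3, and 2 times in that of Shank3. The whole CRE (1.79% of all entries), the AP-1 site (7.81%) and the CArG box (1.63%) were not found in any of the 11. A match is a run of letters and shows no binding.

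Libraries held between 25858355 and 33428512 counts. The 7 excitatory neuron markers fixed for the tissue check were all measured, at a summed 7674 to 8509 CPM (reads on a common TMM library scale) after single housing and 7734 to 8708 CPM after group housing, and none was at 0. Markers of the striatum, which lies beneath the frontal cortex, were measured for 18 of 18 genes, none at 0, and their summed level ranged from 831 to 3434 CPM in single-housed and from 874 to 1709 CPM in group-housed libraries. Group-housed replicate 1 stood apart in several ways. It had the lowest total count, the highest summed level of 6 oligodendrocyte markers (5148 CPM, against 1882 to 4042 CPM in the others) and a different balance of long and short genes. Because these are pieces of tissue, fewer cells of a type and less RNA per cell cannot be told apart.

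None of the 8 scaffold genes differed between single and group housing by more than the spread between replicates. In the edgeR quasi-likelihood fit over 15258 genes, 0 passed the Benjamini-Hochberg threshold (0%), and each of the 8 genes had an adjusted p of 0.9999. The log2 differences, single minus group, ran from −0.15 for Homer1 to 0.10 for Shank3. The 2 groups overlapped for all 8 genes, where 4.86% of all genes had groups that did not overlap. An exact two-sided permutation test gave p from 0.5 (Dlg4) to 1 (Homer3, Shank1 and Shank2), and 3 against 3 cannot go below 0.1. At an unadjusted p under 0.05 there were 238 genes in all (1.56%), none of them among the 8. DESeq2 called 8 genes in the whole table, with none of the 8 scaffolds among them.

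**Figure D1:**
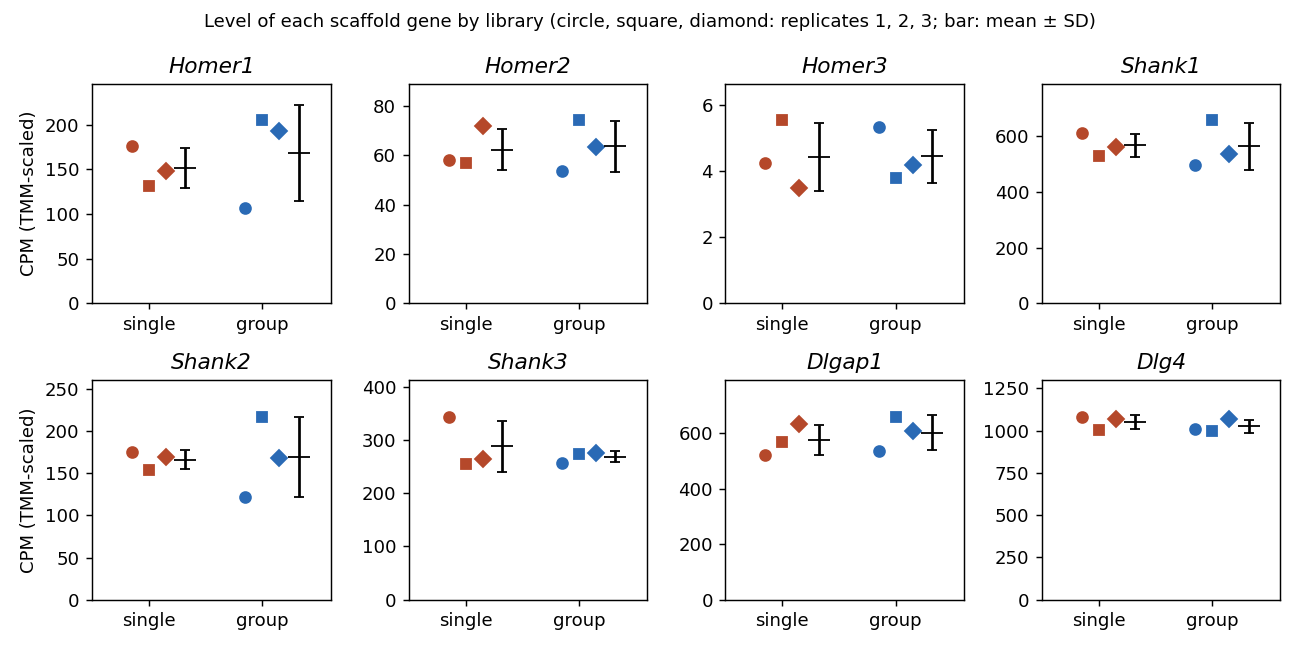
CPM of each scaffold gene (y axis, from 0) in single-housed (red) and group-housed (blue) libraries, with replicates 1, 2 and 3 as circle, square and diamond and the mean ± SD of 3 as a bar. The groups overlap in every panel, and group-housed replicate 1 is the lowest library for Homer1 (107 CPM), Homer2, Shank1 and Shank2.

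Homer1, the adaptor with the activity-induced form, was the most uneven of the 8. It was at 176, 132 and 148 CPM in replicates 1, 2 and 3 of single housing and at 107, 205 and 193 CPM in those of group housing. The highest and the lowest of the 6 libraries were thus both group-housed, and the 3 single-housed libraries lay between them. The means were 152 ± 22.3 and 168 ± 53.6 CPM (SD, n = 3 each), a log2 difference of −0.15 (SE 0.221) with a 95% interval from −0.65 to 0.35. The highest library was 1.92 times the lowest, a ratio larger than that of 88.7% of genes tested, whose median ratio was 1.29. The size of the difference depended on which libraries were kept. Without group-housed replicate 1 it was −0.39 (SE 0.119; edgeR unadjusted p = 0.0112, adjusted p = 0.99997), and without single-housed replicate 1 it was −0.27. In the fit without group-housed replicate 1, 525 of 15376 genes had an edgeR unadjusted p under 0.05. The Homer1 difference was near 0 without single-housed replicate 2 (−0.05), group-housed replicate 3 (−0.04) or group-housed replicate 2 (0.02). Without the 3 libraries richest in striatal markers (single-housed replicates 1 and 2 and group-housed replicate 1), a fit added once the values were known, it was −0.43 (SE 0.135; edgeR adjusted p = 0.9999). That fit leaves 1 library against 2 and assumes that the lone library varies like the other group.

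Homer2 and Homer3, paralogs that have the coiled coil and are not known as immediate early genes, were lower than Homer1 per deposited exon length. Homer2 (chromosome 7, 88745367 to 88851811, minus strand, mm9) was at 58.0, 56.9 and 71.8 CPM in single-housed and at 53.5, 74.2 and 63.4 CPM in group-housed libraries. Low and high libraries occurred in both groups, and the log2 difference was −0.04 (SE 0.133). Homer3 (chromosome 8, 72806898 to 72818260, plus strand) was at 4.24, 5.53 and 3.48 CPM in single-housed and at 5.34, 3.80 and 4.19 CPM in group-housed libraries. It was the only one of the 8 measured on fewer than 200 counts per library (116 to 185), and its difference of 0.00 (SE 0.202) has an interval from −0.46 to 0.45. Of its 2445 exon bases, 874 overlap Ddx49 on the opposite strand. Since the strand setting of the counting is not given in the sources used here, reads there cannot be assigned with certainty.

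Shank1, Shank2 and Shank3 encode the large scaffolds at the base of the postsynaptic density, between SAPAP and Homer. Shank1 (chromosome 7, 51565634 to 51613723, plus strand) was at 611, 528 and 562 CPM in single-housed and at 495, 657 and 538 CPM in group-housed libraries. Its single-housed values again lay within the group-housed range, with a difference of 0.01 (SE 0.112). Shank2 (chromosome 7, 151361425 to 151608580, plus strand) was at 175, 154 and 169.6 CPM in single-housed and at 122, 217 and 168 CPM in group-housed libraries. Its lowest and highest libraries were the same as for Homer1, the ratio between them was 1.79, and the difference was −0.03 (SE 0.178).

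Shank3, the Shank gene best known from striatal synapses, differed from that pattern. It (chromosome 15, 89330288 to 89390691, plus strand) was at 344, 255 and 264 CPM in single-housed and at 257, 274 and 275 CPM in group-housed libraries. A single library, single-housed replicate 1, stood above the other 5, which spanned 255 to 275 CPM. The log2 difference was 0.10 (SE 0.114), and without that library it was −0.05 (SE 0.0785). Single-housed replicate 1 also had the highest mean of the striatal markers, at 6.82 log2 CPM against 4.20 to 5.87 in the other libraries. Drd2, for the dopamine D2 receptor, was at 47.1 CPM there and at 0.870 to 17.3 CPM elsewhere, and Ppp1r1b, which encodes DARPP-32, at 426 CPM against 64.8 to 214 CPM. With the striatal mean as a covariate the Shank3 difference was 0.03 (SE 0.114). Single-housed replicate 2 had the next highest striatal mean (5.87 log2 CPM) and the lowest Shank3 (255 CPM). Group-housed replicate 1 had a high striatal mean too (5.79 log2 CPM) and 257 CPM of Shank3. Whether the Shank3 level follows the striatal markers was not tested.

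Dlgap1, which encodes the PSD-95-binding protein SAPAP1, and Dlg4 were the steadier members. Dlgap1 (chromosome 17, 70774132 to 71170753, plus strand) was at 523, 569.6 and 632 CPM in single-housed and at 536, 660.1 and 610.0 CPM in group-housed libraries. Its lowest library was single-housed replicate 1, where Shank3 was highest, and its difference was −0.07 (SE 0.102). Dlg4 (chromosome 11, 69832107 to 69859033, plus strand) was at 1082, 1003 and 1069 CPM in single-housed and at 1008, 994 and 1069 CPM in group-housed libraries. All 6 values lay within a ratio of 1.09, smaller than that of all but 3.59% of genes tested. Its difference was 0.04 (SE 0.0711), with an interval from −0.12 to 0.20, the narrowest of the 8. The Homer1 interval, the widest, reaches down to −0.65, so for Homer1 a lower level of that size after single housing is not excluded.

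**Figure D2:**
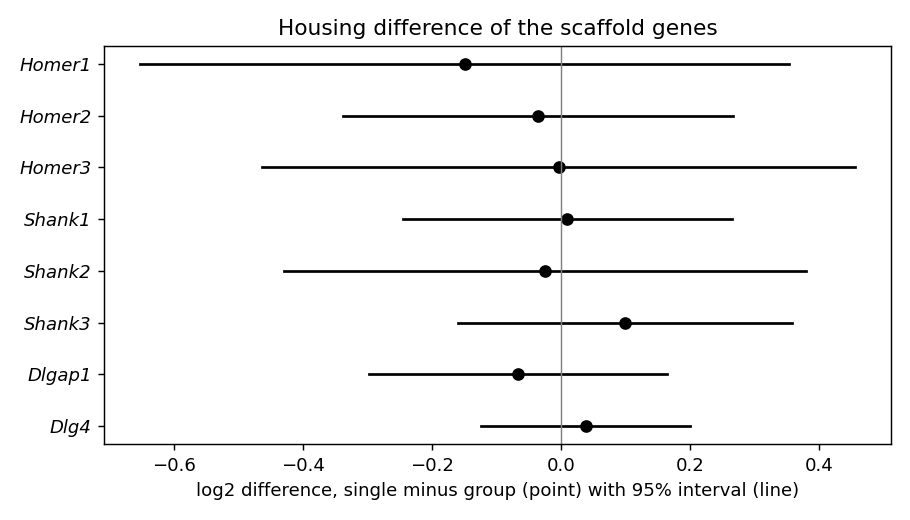
Log2 difference between single-housed and group-housed libraries (x axis, single minus group) of each scaffold gene, as a point with its 95% interval from edgeR's quasi-likelihood fit (3 libraries each). Every interval spans 0, and the narrowest is that of Dlg4 (−0.12 to 0.20) and the widest that of Homer1 (−0.65 to 0.35).

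Per kilobase of exon, PSD-95 RNA exceeded that of every other scaffold in each library. Dlg4 had 312 CPM per kb on average over the 6 libraries, followed by Shank1 with 74.4 and Dlgap1 with 73.7, whose ranges overlapped (65.2 to 86.6 and 65.5 to 82.7). Shank3 came next at 39.0 CPM per kb, then Homer1 at 28.0 and Shank2 at 23.8. The ranges of Homer1 (18.7 to 35.9) and Shank2 (17.3 to 30.9) overlapped, and the highest Homer1 library just reached the range of Shank3 (35.8 to 48.2). Homer2 was at 5.65 CPM per kb and Homer3 at 1.81, with ranges that touched neither each other nor Shank2. The Homer2 row is dominated by 1 exon block of 9961 bases, 89.3% of its length, so its level per kilobase depends on how much of that block is used in cortex.

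**Figure D3:**
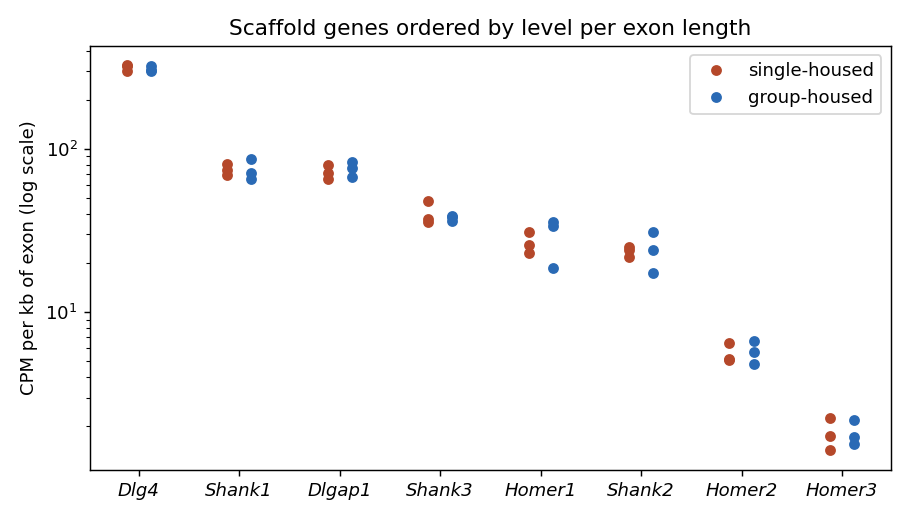
CPM per kilobase of deposited exon length (y axis, log scale) of the 8 scaffold genes, ordered by their mean, with 3 single-housed (red) and 3 group-housed (blue) libraries each. Dlg4 lies above all others at 299 to 325 CPM per kb, and Homer3 lies lowest at 1.42 to 2.26.

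The balance within each family did not separate the housing groups. Homer1 made up 78.0% ± 3.13 of the 3 Homer genes' RNA per length after single and 78.7% ± 5.15 after group housing (SD, n = 3 each). Homer2 contributed 16.5% ± 2.64 and 15.9% ± 2.53, and Homer3 5.42% ± 1.76 and 5.40% ± 2.71. Over all 6 libraries the Homer1 share ran from 72.8% in group-housed replicate 1 to 82.0% in group-housed replicate 3. Among the Shank genes, Shank1 held 53.9% ± 1.32 and 54.5% ± 1.26, Shank3 29.0% ± 2.11 and 28.0% ± 2.97, and Shank2 17.1% ± 0.822 and 17.5% ± 2.65. The Shank1 share moved least, between 52.4% and 55.5% in all 6 libraries. These shares are sums over the members and are given without a test. The Homer shares, like the Homer2 level per kilobase, depend on how much of its block of 9961 bases is used in cortex.

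Set against the 7 constitutive scaffolds, Homer1 was again lowest in group-housed replicate 1 and highest in the other two group-housed libraries. Its log2 CPM minus their mean was 0.00, −0.35 and −0.21 in single-housed and −0.56, 0.15 and 0.17 in group-housed replicates 1, 2 and 3. Only the change of this value between libraries has a meaning, since it compares genes of different length. The group means were −0.19 ± 0.177 and −0.08 ± 0.417 (SD, n = 3 each), with groups that overlapped. The narrowest span was that against Shank2, where the log2 difference between the genes stayed between −0.23 and 0.20. Against Dlg4 it spanned −3.24 to −2.28, and against Homer3, the sparsest row, 4.31 to 5.73. For each of the 7 pairs the housing groups overlapped.

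Other genes induced by neuronal activity had mostly lower mean levels after single housing, and Homer1 did not follow the library order of their mean. The Homer1 level is that of its whole row, so the induced short form itself was not measured. Of 30 such genes, a list chosen with earlier results of these data known, 29 had a lower mean level in single-housed libraries and 1, Maff (0.15, named after its value was seen), a higher one. Their median difference was −0.51, against 0.00 over the whole table. By edgeR 0 of the 30 passed, while DESeq2 called Fos (adjusted p = 1.38e-05) and Egr1 (adjusted p = 0.0403), and the groups did not overlap for 12 of them (4.86% over all genes). Arc, which encodes a postsynaptic protein that regulates AMPA receptor uptake, was at 43.5, 116 and 78.6 CPM in single-housed and at 359, 141 and 157 CPM in group-housed libraries. Fos, an AP-1 subunit gene, was at 13.1, 15.7 and 11.6 CPM against 52.0, 23.0 and 33.2 CPM. Group-housed replicate 1, which had the lowest Homer1, was the highest of the 6 libraries for both.

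Egr1 and Nptx2 had a different high library from Arc and Fos. Egr1, a zinc-finger transcription factor gene, was at 356, 254 and 233 CPM in single-housed and at 382, 499.6 and 482 CPM in group-housed libraries. Nptx2, which encodes a secreted pentraxin that clusters AMPA receptors, was at 88.2, 71.4 and 74.9 CPM against 90.3, 101 and 99.6 CPM. For these 2 genes, as for Homer1, the 2 highest libraries were group-housed replicates 2 and 3. The same held for Egr3, Bdnf and Nr4a3 of the list, whose level in group-housed replicate 1 lay within the single-housed range. They were named after their values were seen, and the genes of the list did not share 1 order. The mean over the 30 genes was 4.51, 4.76 and 4.63 log2 CPM in single-housed and 5.39, 5.02 and 5.14 in group-housed libraries. Homer1 was at 7.46, 7.04 and 7.21 and at 6.74, 7.68 and 7.59 log2 CPM in the same order. Whether the housing difference of Homer1 departs from that of the list was not tested.

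**Figure D4:**
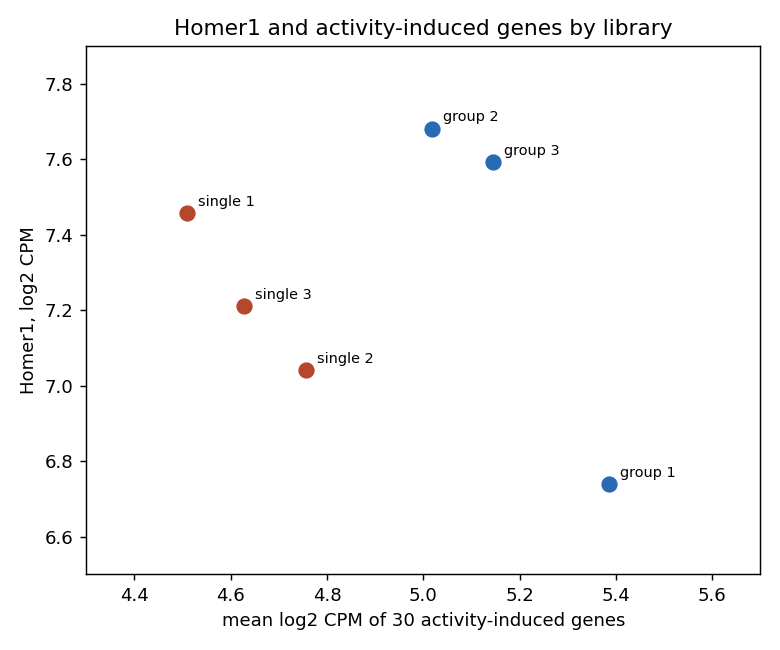
Homer1 level, all forms together (y axis, log2 CPM), against the mean of 30 activity-induced genes (x axis, log2 CPM) in each library, single-housed in red and group-housed in blue. The 3 group-housed libraries have the higher list means (5.02 to 5.39), but their Homer1 levels take the top places (7.68 and 7.59) and the lowest (6.74).

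Group-housed replicate 1 was the lowest of the 6 libraries for 4 of the 8 scaffold genes, 44 of 65 partner genes (67.7%) and 26.4% of all genes tested. Group-housed replicate 2 was the highest for 5 of the 8, 32 of the 65 (49.2%) and 19.97% of all genes. Both libraries also stood apart in how counts were distributed over gene lengths, a feature looked at after these values were seen. Among genes of at least 5 CPM, those with under 1500 bases of exon were 0.12 above their own 6-library mean (median, log2) in group-housed replicate 1, and the 981 genes with 7000 bases or more were 0.16 below it. In group-housed replicate 2 the order was the opposite, at −0.13 and 0.15. The other 4 libraries stayed between −0.04 and 0.07 in each length class. In the class that holds Homer1, from 5000 to 7000 bases, the median was −0.09 in group-housed replicate 1, where Homer1 itself was 0.55 below its mean.

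With each library's length trend taken out, as an alternative added after seeing the data, the range of Homer1 over the 6 libraries went from 0.94 to 0.79 on the log2 scale. That of Shank1 went from 0.41 to 0.19 and that of Shank2 from 0.84 to 0.61. Dlg4, the shortest of the 8 but for Homer3, had a range of 0.12 before and 0.14 after. The housing differences were −0.16 (SE 0.199) for Homer1, 0.06 (SE 0.106) for Shank3 and −0.10 (SE 0.0794) for Dlgap1, and none of the 8 passed edgeR's test (adjusted p = 0.9998 each).

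**Figure D5:**
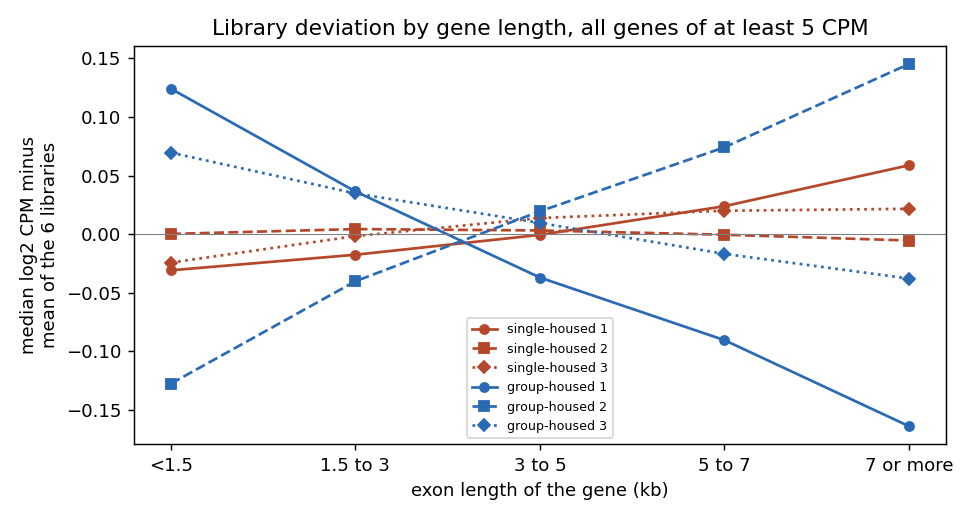
Median deviation of a library from the 6-library mean (y axis, log2 CPM) for all genes of at least 5 CPM, in 5 classes of exon length (x axis, kb), with 1 line per library. Group-housed replicate 1 falls from 0.12 to −0.16 with length and group-housed replicate 2 rises from −0.13 to 0.15, while the other 4 stay near 0.

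Genes whose products bind these scaffolds were measured next, in 4 lists that were chosen with earlier results known. Of the 65 different partner genes 44 were higher after single housing, against 50.7% of all genes tested. With 1 library left out, the 4 list medians moved between −0.07 and 0.14. These medians were all negative without group-housed replicate 1 and all positive without group-housed replicate 2. Of 15 other scaffolds of the PSD-95, SAPAP and related families, 9 were higher and 6 lower with single housing, at a median of 0.01 on the log2 scale. Begain, which encodes a PSD-95-binding protein, was at 168, 153 and 168 CPM in single-housed and at 184, 173 and 181 CPM in group-housed libraries. It was the 1 gene of this list whose groups did not overlap, with a difference of −0.13 (SE 0.0719). Dlg5, a more distant relative of PSD-95 (0.13, SE 0.113), and Lrrc7, which encodes densin-180 (0.16, SE 0.158), had the next smallest p. None of the 15 passed.

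Of 15 Homer partners, 11 were higher and 4 lower (median 0.04), and none passed. Grm5, the metabotropic glutamate receptor 5 gene, was at 178, 166 and 183.5 CPM in single-housed and at 139, 173 and 149.9 CPM in group-housed libraries. The groups overlapped through group-housed replicate 2, and the difference was 0.19 (SE 0.0938). The calcium release channel gene Ryr1 had a difference of 0.21 (SE 0.170). Of 15 Shank partners, 10 were higher and 5 lower (median 0.02), and none passed. The smallest p-values were those of the latrophilin gene Lphn1 (0.09, SE 0.0912), the GTPase-activating protein gene Arhgap44 (0.06, SE 0.0675) and the dynein light chain gene Dynll2 (−0.06, SE 0.0725).

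Among 20 measured PSD-95 partners (of 21 listed, 1 not matched by symbol), 14 were higher and 6 lower, with a median of 0.04, and none passed. Kcna4, a potassium channel gene whose product binds PSD-95, was at 27.9, 25.7 and 21.4 CPM in single-housed and at 21.2, 19.4 and 19.6 CPM in group-housed libraries. All 3 single-housed values lay above the group-housed ones, and the difference was 0.32 (SE 0.112; edgeR adjusted p = 0.9999). Cacng8, which encodes an AMPA receptor auxiliary subunit, was at 44.9, 43.2 and 41.0 CPM against 35.1, 39.5 and 39.9 CPM (0.17, SE 0.0812). Camk2b, a calcium-dependent kinase gene, was at 1203, 1114 and 1041 CPM against 1024, 1024 and 1038 CPM (0.12, SE 0.0758). These 3 were the genes of the list with groups that did not overlap, and over the 65 different partner genes there were 4 such genes, next to 4.86% of all genes tested. Striatal markers averaged 6.82, 5.87 and 4.20 (log2 CPM) in replicates 1, 2 and 3 of single housing and 5.79, 4.21 and 4.57 in those of group housing. All 3 genes had the order of that average in the single-housed libraries and Kcna4 also in the group-housed ones, where Cacng8 was lowest and Camk2b was not highest in replicate 1, the library richest in these markers. With the marker average as a covariate the differences were 0.21 for Kcna4, 0.17 for Cacng8 and 0.08 for Camk2b. Without the 3 libraries richest in striatal markers, a fit that leaves 1 library against 2, they were 0.14, 0.05 and 0.015. Whether the levels of these 3 genes follow the striatal markers was not tested.

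The genes whose profile over the 6 libraries was most like that of Homer1 were Cdyl2, Smad3, Sgsm1, Rims3 and Zbtb7c. Likeness was measured as the root mean square difference of centred log2 CPM among 10762 genes of at least 5 CPM. It was 0.0788 for Cdyl2, a chromodomain protein gene, 0.0841 for Smad3, a TGF-beta signalling gene, and 0.0946 for Sgsm1. It was 0.0956 for Rims3, which encodes a presynaptic active zone protein, and 0.102 for Zbtb7c, a zinc-finger protein gene, where the median gene had 0.338. All 5 were lowest in group-housed replicate 1, at 23.4, 64.7, 136, 24.8 and 4.51 CPM. Cdyl2, Smad3, Rims3 and Zbtb7c were highest in group-housed replicate 2 (45.3, 127, 48.0 and 8.68 CPM), like Homer1. Sgsm1 was highest in group-housed replicate 3, at 217 CPM against 213 CPM in replicate 2.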

How the data were processed

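The submitters' processing notes name build mm9 and the tools FastQC, STAR and featureCounts; for the strand setting, versions and annotation release, the sources used here give nothing. Per the labels' protocols, libraries were made with a stranded polyadenylated RNA kit. The deposited values are raw read counts per gene, not normalized by the authors; the exon length column, per the file headers, served for levels per kilobase. Groups came from the housing label and replicate numbers from the titles.

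Counts were tested with edgeR 4.0.16 (R 4.3.3): TMM, filterByExpr (minimum count 10, minimum total 15), quasi-likelihood F-test, Benjamini-Hochberg over 15258 genes, threshold 0.05. Standard errors were derived from the F statistic. List means use log2 CPM with a prior count of 2. Alternatives were DESeq2 1.42.0 and its size factors, limma-voom (limma 3.58.1), other filters, a replicate block, a striatal covariate and leaving out libraries. The members, lists and tests were chosen with earlier results of these data known. Named partner genes are the 3 of smallest p per list, of which 1 is not reported here; the 4 activity-induced and 2 striatal genes were set by name, and likeness to Homer1 was ranked over genes of at least 5 CPM that are not predicted ones. The test was also run on data simulated from these libraries (15258 genes, 50 changed genes per fold size). It found 58% of the 1.5-fold changes and 86% of the 2-fold ones and made 14 false calls. Genes were drawn independently of each other there, so shifts shared by many genes of a library were absent. These shares therefore need not hold for the real libraries. Every pair of libraries differed beyond sampling noise (chi-square 8.56 to 40.6 per degree of freedom). Sequences are from GENCODE M21 transcripts and RefSeq promoters.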

Additional observations from a re-analysis of the deposited data

How the results depend on the processing

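The table of all genes gave 0 higher and 0 lower genes with edgeR, and DESeq2 gave 2 higher and 6 lower. Leaving out 1 library gave 0 higher and 0 to 1 lower (1 without group-housed replicate 1 or group-housed replicate 2), and leaving out the 3 libraries richest in striatal markers, chosen after the data were seen, gave 1 higher and 3 lower. No scaffold gene passed under any of the 15 alternatives, and Dlg4 kept its direction in all of them. The other 7 changed sign in at least 1, among them Homer1 (−0.15 in the main fit) and Shank3 (0.10), and the cause was not tested. Leaving out 1 library gave −0.39 to 0.0173 for Homer1, −0.15 to 0.0888 for Homer2, −0.19 to 0.15 for Homer3, −0.0744 to 0.14 for Shank1, −0.21 to 0.20 for Shank2, −0.0497 to 0.19 for Shank3, −0.14 to 0.00475 for Dlgap1, −0.42 to 0.0241 for Cdyl2, −0.32 to 0.13 for Smad3, −0.25 to 0.16 for Rims3 and −0.25 to 0.19 for Zbtb7c. With the striatal covariate the difference was 0.0979 for Homer2, 0.0986 for Shank2, 0.0303 for Dlgap1, −0.36 for Drd2, −0.12 for Ppp1r1b, 0.0444 for Smad3, 0.14 for Rims3 and 0.0406 for Zbtb7c. Without the 3 striatum-rich libraries it was 0.0607 for Homer2, −0.0876 for Shank1, −0.0534 for Shank3, −0.00710 for Dlg5, −0.000434 for Lrrc7, −0.0309 for Lphn1, −0.0175 for Arhgap44, −1.04 for Drd2 and −0.26 for Ppp1r1b. With the exon length trend as an offset, also added later, it was 0.00801 for Homer3, −0.0190 for Shank1 and 0.00611 for Rims3. Limma-voom gave 0.0124 for Shank2, 0.0358 for Rims3 and 0.00157 for Zbtb7c. With the replicate block it was 0.0117 for Shank2, 0.0359 for Rims3 and 0.000273 for Zbtb7c, and 0 genes were called. The deviations of same-numbered libraries correlated at 0.27, −0.32 and 0.17, and not every library correlated best with its own number. Whether same-numbered libraries shared a batch was not tested. The medians of the 4 partner lists moved between −0.07 and 0.14 when 1 library was left out, and that of the activity-induced list between −0.59 and −0.40. Homer3 rests on 116 to 185 counts a library, the fewest of the 8, and its spread was not split into counting error and differences between libraries.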
